A study of Mus musculus with 20 samples.

Results

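Axon guidance genes encode the ligands and receptors by which growing axons, blood vessels and migrating cells are attracted or repelled. The genes described here are the semaphorins of classes 3 to 7, the plexins and neuropilins that receive them, the Slit ligands and their Robo receptors, and the netrins with the receptors Dcc, Neo1 and Unc5. They were chosen by gene name, which took 49 of the 54446 genes listed in the tables: 7 class 3 semaphorins, 13 semaphorins of classes 4 to 7, 9 plexins, 2 neuropilins, 3 Slits, 4 Robos, 5 netrin ligands and 6 netrin receptors. Of these, 41 had a mean of at least 1 TPM over all libraries and were tested. TPM, a relative abundance of transcripts, corrects a gene's reads for its length and scales every library to the same total. Sema3g, Sema4a, Plxna4, Plxnb3, Robo3, Ntng1, Dcc and Unc5d fell under that level and have values but no test. The highest of these was Sema3g at a mean of 0.555 TPM, and the lowest gene that passed was Robo4 at 1.03 TPM.

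The families work as pairs of ligand and receptor. Class 3 semaphorins are secreted and bind a neuropilin, which has no signalling domain of its own and passes the signal through a plexin. Semaphorins of classes 4 to 7 are mostly anchored in the membrane and bind plexins directly. Slits repel cells that carry Robo receptors. Netrins such as Ntn1 attract through Dcc and repel through Unc5 receptors. Neo1 is a relative of Dcc that also binds the repulsive guidance molecules Rgma and Rgmb. The netrin relatives Ntng1 and Ntng2 are counted here as netrin ligands, but they are not ligands of these receptors. In the embryonic trunk these systems act outside axons as well: semaphorins guide neural crest cells and intersomitic vessels, neuropilin 1 is a co-receptor for the vascular growth factor VEGF, and Robo4 is known from endothelium.

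The data are 15 bulk RNA-seq libraries in 5 groups of 3. All structures came from 1 line of mouse embryonic stem cells, F1G4, which carried the reporters T::H2B-mCherry and Sox2::H2B-Venus. All groups, the 96h group included, were given 3 µM CHIR99021, an activator of WNT signalling, from 48 h of aggregation. The 96h group was collected at 96 h as pools of 10 structures, and the other groups at 120 h as pools of 6. Gastruloid structures grew without Matrigel, TLSMG structures in Matrigel (a basement membrane gel), TLSMGC structures in Matrigel with added CHIR99021, and TLSMGCL structures in Matrigel with added CHIR99021 and the BMP receptor inhibitor LDN. Pools were made of structures chosen for an asymmetric pole, so they do not represent every structure of a culture. The labels call the 3 libraries of a group biological replicates, and do not say that they came from separate cultures, so a p-value here measures the spread between pools.

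Relative depth, read from coverage per FPKM, ran from 3.12 to 6.84, with TLSMG replicate 3 the deepest library. The number of genes at 1 TPM or more ran from 13688 to 14494. Libraries of a group correlated at 0.985 to 0.991 over genes, and libraries of different groups at 0.939 to 0.988. Of 12 neuron markers 6 were below the level for testing (Dcx, Elavl3, Neurod1, Neurod4, Nhlh1 and Nhlh2) and 6 were above it (Tubb3, Elavl4, Stmn2, Map2, Isl1 and Lhx1). The sum of the 12 was highest at 96h (85.2 to 89.4 TPM), where Lhx1 alone had a mean of 48.5 TPM. Stmn2, Map2 and Isl1 also had their highest mean at 96h. Tubb3 was highest in TLSMGCL (mean of 19.2 TPM, 13.5 at 96h) and Elavl4 in Gastruloid (2.82 TPM, 0.953 at 96h). The number of neurons was not tested. In bulk RNA a lower level can come from fewer cells of a type or from less RNA per cell, and these cannot be told apart.

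Promoter sequence is shown for 5 members that the results below turn on, chosen after their values were seen. Each run is the 250 bases before the RefSeq start of the gene on GRCm38.p6, written 5′ to 3′ on the gene's strand. Sema5a and Ntn5 were highest with added CHIR99021, Plxnd1 and Robo4 were highest in TLSMG, and Nrp2 was high in all 3 Matrigel groups. Capitals mark CTTTGAT in Nrp2, a form of the motif bound by the WNT effectors TCF and LEF, and CAGGAAG in Robo4, a form of the ETS motif of many endothelial promoters.
Sema5a, chr15:32244563-32244812, plus strand: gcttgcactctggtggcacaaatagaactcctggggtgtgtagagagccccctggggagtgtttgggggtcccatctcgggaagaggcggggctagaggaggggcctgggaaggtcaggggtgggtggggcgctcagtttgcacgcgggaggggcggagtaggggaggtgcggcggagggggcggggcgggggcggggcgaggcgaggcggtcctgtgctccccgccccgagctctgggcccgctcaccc
Ntn5, chr7:45683772-45684021, plus strand: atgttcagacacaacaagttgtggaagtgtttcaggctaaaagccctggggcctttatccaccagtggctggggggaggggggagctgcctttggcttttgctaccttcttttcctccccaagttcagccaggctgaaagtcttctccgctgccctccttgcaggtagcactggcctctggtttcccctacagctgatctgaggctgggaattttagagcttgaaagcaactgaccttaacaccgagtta
Plxnd1, chr6:115995006-115995255, minus strand: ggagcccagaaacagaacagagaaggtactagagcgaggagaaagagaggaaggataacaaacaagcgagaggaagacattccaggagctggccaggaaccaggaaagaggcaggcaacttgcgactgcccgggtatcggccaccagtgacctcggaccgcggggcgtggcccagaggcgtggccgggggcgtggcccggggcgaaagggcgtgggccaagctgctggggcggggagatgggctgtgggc
Robo4, chr9:37401722-37401971, plus strand: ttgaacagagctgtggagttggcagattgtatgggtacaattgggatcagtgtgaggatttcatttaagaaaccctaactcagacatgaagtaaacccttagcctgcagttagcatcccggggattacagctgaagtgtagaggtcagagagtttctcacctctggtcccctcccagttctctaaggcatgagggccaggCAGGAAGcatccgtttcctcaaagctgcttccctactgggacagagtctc
Nrp2, chr1:62703067-62703316, plus strand: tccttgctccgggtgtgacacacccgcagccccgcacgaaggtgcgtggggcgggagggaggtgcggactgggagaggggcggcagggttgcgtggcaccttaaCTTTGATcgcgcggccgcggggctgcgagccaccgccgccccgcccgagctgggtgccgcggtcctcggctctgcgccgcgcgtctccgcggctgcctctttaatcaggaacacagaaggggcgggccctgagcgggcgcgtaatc

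The TCF/LEF search used CTTTGAT and CTTTGAA on both strands and found 1 or more matches in 2 of the 40 members with a RefSeq promoter (5.0%), against 2457 of 32851 promoters of the same length (7.48%). The matches lay 146 bases before the start of Nrp2 on its own strand and 119 bases before the start of Sema3e on the opposite strand. The ETS search used CCGGAAG and CAGGAAG on both strands and found matches in 5 of 40 members (12.5%) against 5585 of 32851 promoters (17.0%). The match in Robo4 began 50 bases before its RefSeq start, which lies 75 bases inside the gene as listed with the TPM values. Some RefSeq starts lay far from the listed gene start, by 354843 bases in Robo1, 271370 in Sema3a and 37064 in Sema4d. Those windows are counted among the 40. Neither the Sema5a nor the Ntn5 window held a match to either pair of letters. A match describes letters only, and windows of this size do not cover enhancers.

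By limma's moderated F test on log2(TPM + 1), with Benjamini-Hochberg adjustment over 14290 genes and a threshold of 0.05, 33 of 41 differed among the 5 groups, where 73.5% of all genes did, and 30 of 41 among the 4 groups at 120 h, where 62.7% of all genes did. Of the 41, 14 had their highest mean in TLSMG, 13 at 96h, 7 in Gastruloid, 4 in TLSMGCL and 3 in TLSMGC. The heatmap of levels shows blocks of each kind: Slit3, Plxna2 and Sema7a bright at 96h only, Nrp1 and Plxnd1 bright in TLSMG, and Sema5a, Ntn5 and Ntng2 bright in both groups with added CHIR99021.

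**Figure D1:**
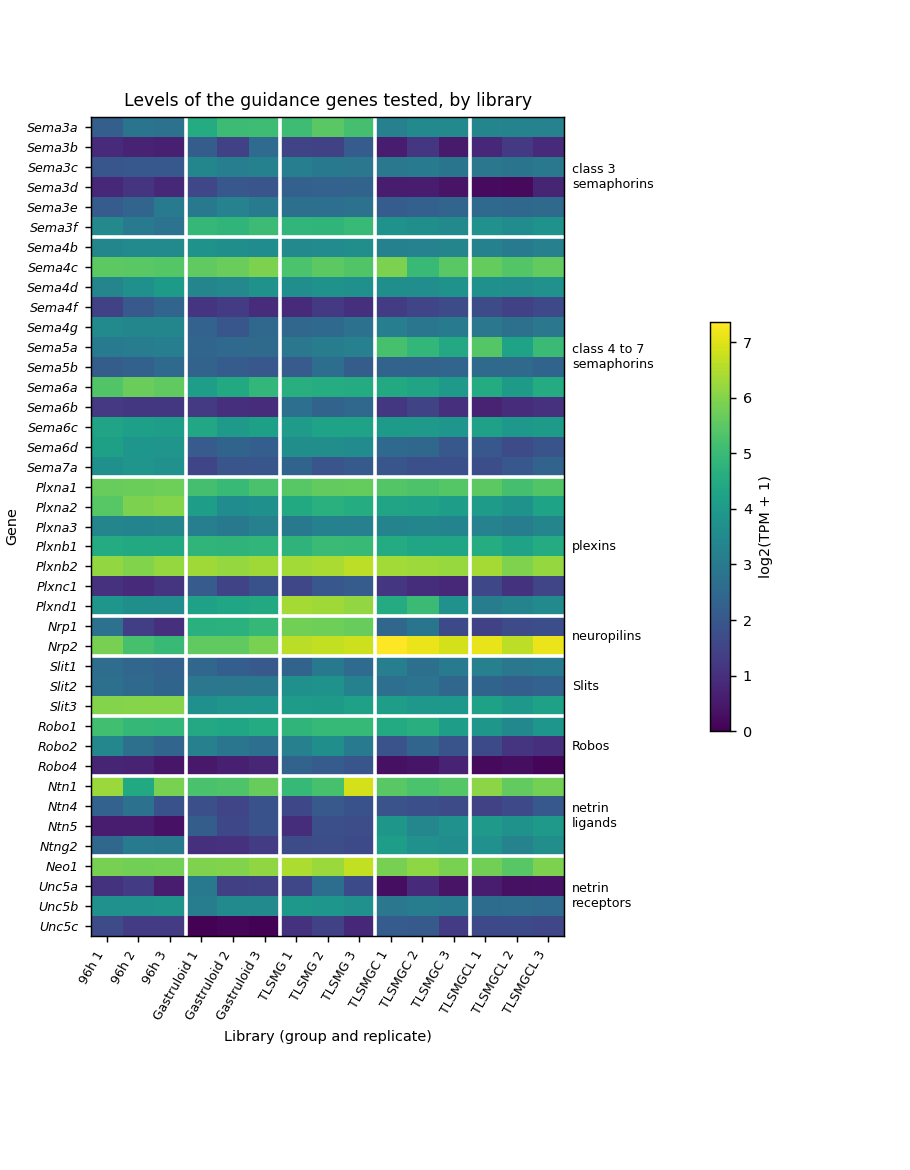
Level of each of the 41 tested genes, as log2(TPM + 1) by colour, in each of the 15 libraries (columns) and grouped by family (rows). Libraries of a group look alike for most genes, and Ntn1 is an exception, with TLSMG replicate 3 at 117 TPM against 29.5 and 36.7 in the other two.

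Between 96h and Gastruloid, 25 members changed, 12 higher and 13 lower in Gastruloid (adjusted p from limma with Benjamini-Hochberg, as in all comparisons below), where 41.2% of all genes were called (20.8% higher and 20.5% lower). In TLSMG against 96h, 24 changed, 17 higher and 7 lower, where 46.0% of all genes were called (33.5% higher and 12.5% lower). These 2 comparisons share the 96h libraries. In TLSMG against Gastruloid, 16 were higher and none lower, where 39.3% of all genes were called (31.5% higher and 7.87% lower). Added CHIR99021 (TLSMGC against TLSMG) gave 5 higher and 19 lower where 40.9% of all genes were called (10.4% higher and 30.5% lower). CHIR99021 with LDN (TLSMGCL against TLSMG) gave 4 higher and 19 lower, where 44.9% of all genes were called (9.31% higher and 35.6% lower). LDN on top of CHIR99021 (TLSMGCL against TLSMGC) gave 2 lower, Plxnd1 and Robo1, where 1.18% of all genes were called (0.406% higher and 0.777% lower), and 8 members had an unadjusted p under 0.05. All comparisons but those of Gastruloid with 96h and of TLSMGCL with TLSMGC share the TLSMG libraries.

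The median absolute log2 difference of members was 0.59 in Gastruloid against 96h (0.25 over all genes), 0.85 in TLSMG against 96h (0.28), 0.36 in TLSMG against Gastruloid (0.25), 0.49 in TLSMGC against TLSMG (0.26) and 0.15 in TLSMGCL against TLSMGC (0.11). The median of all genes was itself off zero, at 0.13 in TLSMG against Gastruloid, 0.14 in TLSMG against 96h, -0.16 in TLSMGC against TLSMG and -0.18 in TLSMGCL against TLSMG, and rescaling by median-of-ratios factors took these medians to -0.02, -0.01, -0.01 and 0.00. With that scaling the members split 11 higher and 4 lower in TLSMG against Gastruloid, 15 and 11 in TLSMG against 96h, and 9 and 16 in both TLSMGC and TLSMGCL against TLSMG. With a correction for GC content and length they split 10 and 3, 16 and 13, 9 and 15, and 12 and 15 in the same order. With FPKM in place of TPM only 33 members passed the filter, of which 12, 17, 17 and 17 had been called with TPM, and these 33 split 8 and 4, 11 and 10, 6 and 11, and 5 and 12. The shares of all genes higher and lower, here and below, are those of TPM without rescaling or correction. Splits under other settings are therefore not set against all genes.

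Ligands and receptors were also counted apart. In TLSMG against Gastruloid 10 of 16 tested receptors and 6 of 25 ligands were higher, where 31.5% of all genes were, and their median log2 differences were 0.45 and 0.16. In TLSMGC against TLSMG 10 receptors were lower and 1 higher, against 9 ligands lower and 4 higher. The medians of receptors and ligands were -0.53 and -0.22, and of all genes 30.5% were lower and 10.4% higher. In TLSMGCL against TLSMG 11 receptors were lower and none higher, against 8 ligands lower and 4 higher. Of all genes 35.6% were lower and 9.31% higher in that comparison. With median-of-ratios scaling 7 receptors were higher and 0 lower in TLSMG than in Gastruloid, against 4 ligands higher and 4 lower, and with the GC and length correction 6 and 0 against 4 and 3. In TLSMGC against TLSMG the same scalings gave 3 receptors higher and 9 lower, and 3 and 8, against 6 ligands higher and 7 lower under both. In TLSMGCL against TLSMG they gave 2 receptors higher and 9 lower, and 3 and 9. The ligands split 7 and 7, and 9 and 6, in that comparison. No test was made of ligands against receptors.

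**Figure D2:**
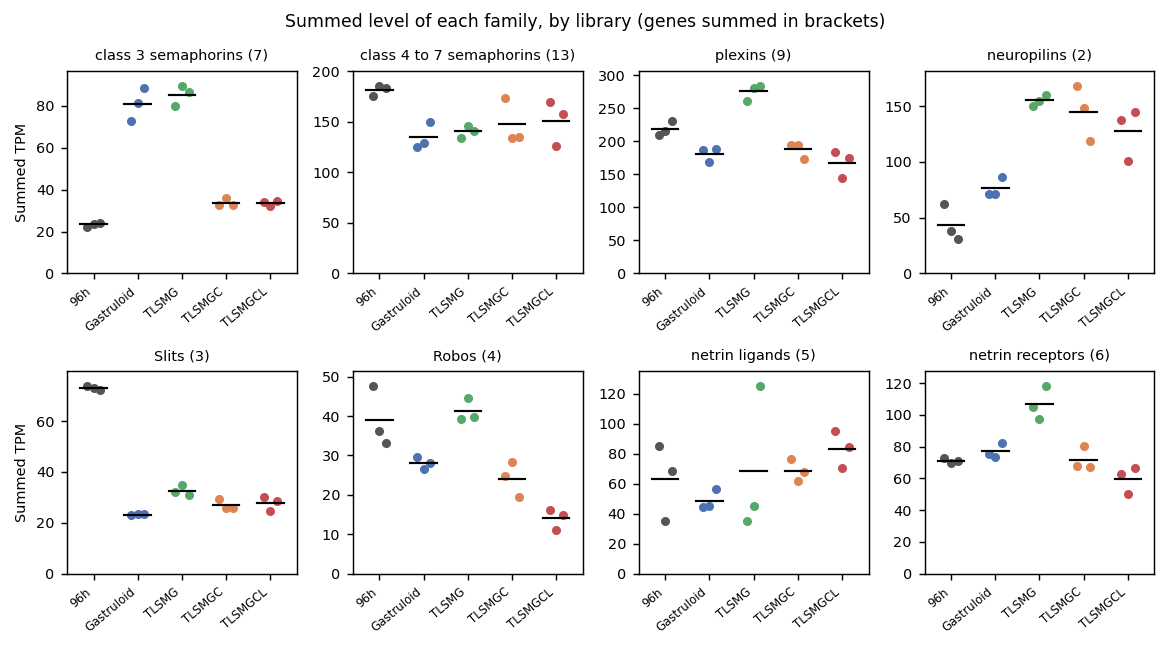
Summed TPM of all genes of a family in each library, with a bar at the mean of the 3 libraries of a group and the number of genes summed in brackets. Class 3 semaphorins are lowest at 96h (22.4 to 24.3 TPM) and highest in Gastruloid and TLSMG (73.0 to 89.7 TPM), and Robos are lowest in TLSMGCL (11.2 to 16.2 TPM).

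Most tested class 3 semaphorins were higher in Gastruloid and TLSMG than at 96h, and lower in both groups with added CHIR99021 than in TLSMG. All 6 tested members were higher in Gastruloid than at 96h and 5 were higher in TLSMG, where 20.8% and 33.5% of all genes were. Against TLSMG, 5 of 6 were lower in TLSMGC and 4 of 6 in TLSMGCL, where 30.5% and 35.6% of all genes were. The summed level of the class was lowest at 96h (22.4 to 24.3 TPM) and highest without added CHIR99021 at 120 h (73.0 to 88.4 TPM for Gastruloid and 80.1 to 89.7 for TLSMG). With it the sum was 32.4 to 35.8 TPM for TLSMGC and 32.1 to 34.5 for TLSMGCL. Sema3a and Sema3f, the repellents best known from spinal nerves and neural crest streams, made up most of it.

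Sema3a (chr5:13125414-13602565, plus strand, mm10) stood at 3.70, 6.12 and 5.88 TPM at 96h, 22.3, 32.4 and 33.1 in Gastruloid, 32.8, 43.6 and 35.8 in TLSMG, 8.31, 10.4 and 10.1 in TLSMGC, and 9.28, 8.80 and 8.60 in TLSMGCL. Every Gastruloid and TLSMG library lay above every library of the other 3 groups. It rose by 2.28 ± 0.18 (log2, SE) from 96h to Gastruloid (adjusted p = 2.57e-07), and it was lower by -1.86 ± 0.18 in TLSMGC than in TLSMG (adjusted p = 3.04e-06). Sema3f (chr9:107681500-107710475, minus strand) stood at 10.1, 7.01 and 5.97 TPM at 96h, 28.9, 27.5 and 32.1 in Gastruloid, 27.8, 27.4 and 30.3 in TLSMG, 12.5, 11.6 and 10.4 in TLSMGC, and 12.3, 10.7 and 12.7 in TLSMGCL. The Gastruloid and TLSMG libraries overlapped with each other and with no other group. Its log2 difference was 1.84 ± 0.14 for Gastruloid against 96h (adjusted p = 2.34e-07) and -1.24 ± 0.14 for TLSMGC against TLSMG (adjusted p = 1.39e-05).

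Sema3d, a close relative of Sema3a, was expressed at lower levels with the same outline: 0.759, 1.21 and 0.755 TPM at 96h, 1.98, 2.98 and 2.83 in Gastruloid, 3.80, 4.01 and 4.13 in TLSMG, 0.504, 0.471 and 0.299 in TLSMGC, and 0.168, 0.130 and 0.700 in TLSMGCL. The TLSMG libraries were above all others, and those with CHIR99021 were below those of Gastruloid. It was higher in TLSMG than in Gastruloid by 0.48 ± 0.17 (adjusted p = 0.0362), a call that was lost under most alternatives, among them leaving out Gastruloid replicate 1 or any TLSMG library (adjusted p of 0.06 to 0.151), and turned to -0.29 (adjusted p = 0.198) with the GC and length correction. Sema3b, which lies 72.3 kb from Sema3f, stood at 0.831, 0.658 and 0.553 TPM at 96h, 3.55, 1.70 and 4.93 in Gastruloid, 1.87, 1.74 and 3.42 in TLSMG, 0.503, 1.26 and 0.460 in TLSMGC, and 0.799, 1.38 and 0.825 in TLSMGCL. The groups at 120 h without CHIR99021 overlapped each other and lay above the rest, with a log2 difference of 1.32 ± 0.27 for Gastruloid against 96h (adjusted p = 0.00162).

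Sema3c and Sema3e departed from this outline. Sema3c rose to 7.81 to 9.34 TPM in Gastruloid from 2.93 to 3.11 at 96h and stayed at 6.20 to 7.84 TPM in all 3 Matrigel groups, with a log2 difference of -0.07 ± 0.09 for TLSMGC against TLSMG (adjusted p = 0.543). Sema3e, the ligand that binds Plxnd1 without a neuropilin, ranged only from 3.41 to 8.70 TPM over all libraries, rose in Gastruloid by 0.57 ± 0.17 with overlapping libraries (adjusted p = 0.0155) and was lower in TLSMGC than in TLSMG by -0.45 ± 0.17 (adjusted p = 0.0462), a call lost with median-of-ratios scaling (adjusted p = 0.165). Sema3a, Sema3c, Sema3d and Sema3e lie on chromosome 5, and the gaps between neighbours are 536.5 kb from Sema3d to Sema3a, 422.7 kb from Sema3a to Sema3e and 3317.6 kb from Sema3e to Sema3c.

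Of the 12 tested membrane-bound semaphorins of classes 4 to 7, 5 fell from 96h to Gastruloid and 0 rose, where 20.5% of all genes were lower, and 4 fell and 1 rose in TLSMG, where 12.5% were lower; 7 were not called in each comparison. Their sum was 175.8 to 185.7 TPM at 96h, 125.2 to 149.3 in Gastruloid and 134.3 to 146.2 in TLSMG. Sema4c, the most abundant of them, stood at 44.5, 43.6 and 41.8 TPM at 96h, 46.6, 50.7 and 59.0 in Gastruloid, 37.6, 44.3 and 40.3 in TLSMG, 59.0, 30.7 and 43.3 in TLSMGC, and 47.9, 40.7 and 47.6 in TLSMGCL, and it was called in no comparison. The members that fell from 96h to Gastruloid were Sema4f, Sema4g, Sema6a, Sema6d and Sema7a. Sema4b was lower in TLSMGC and TLSMGCL than in TLSMG, by -0.27 and -0.40 on the log2 scale (adjusted p = 0.0229 and 0.00232), and with the GC and length correction the first of these turned to 0.02. Sema4d, Sema5b and Sema6c were called in no comparison.

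Sema7a, which is held in the membrane by a lipid anchor, stood at 12.0, 13.3 and 12.2 TPM at 96h, 1.91, 2.86 and 2.96 in Gastruloid, 4.18, 2.86 and 3.26 in TLSMG, 2.96, 2.49 and 2.49 in TLSMGC, and 2.39, 3.03 and 4.04 in TLSMGCL. All 12 libraries at 120 h were below those at 96h and overlapped one another. It fell by 1.93 ± 0.16 (log2) from 96h to Gastruloid (adjusted p = 5.8e-07) and by 1.62 ± 0.16 to TLSMG (adjusted p = 2.89e-06). Sema6a, a transmembrane ligand of the class A plexins, was at 40.3 to 50.5 TPM at 96h and at 14.6 to 28.5 TPM in every library at 120 h, and fell by 1.06 ± 0.19 from 96h to Gastruloid (adjusted p = 0.000602).

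Sema6d and Sema6b were higher in TLSMG than in Gastruloid. Sema6d, a ligand of Plxna1, stood at 17.2, 13.7 and 13.2 TPM at 96h, 3.30, 4.15 and 3.57 in Gastruloid, 11.4, 11.5 and 10.7 in TLSMG, 4.72, 4.62 and 2.97 in TLSMGC, and 2.98, 2.30 and 2.73 in TLSMGCL. The TLSMG libraries lay between those at 96h and all others. The log2 difference was 1.38 ± 0.14 for TLSMG against Gastruloid (adjusted p = 4.61e-05), -1.27 ± 0.14 for TLSMGC against TLSMG (adjusted p = 1.49e-05) and -1.73 ± 0.14 for TLSMGCL against TLSMG (adjusted p = 7.84e-07). Sema6b stood at 1.31, 1.27 and 1.31 TPM at 96h, 1.38, 1.03 and 0.894 in Gastruloid, 5.42, 4.09 and 4.49 in TLSMG, 1.29, 1.83 and 0.973 in TLSMGC, and 0.641, 0.910 and 1.07 in TLSMGCL. Only the 3 TLSMG libraries exceeded 2 TPM, with a difference of 1.43 ± 0.15 from Gastruloid (adjusted p = 4.61e-05).

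Sema5a, a transmembrane semaphorin with thrombospondin repeats (chr15:32244810-32696341, plus strand), was higher in both groups with added CHIR99021 than in TLSMG. It stood at 7.33, 7.45 and 7.87 TPM at 96h, 4.33, 4.75 and 4.85 in Gastruloid, 6.60, 7.58 and 8.30 in TLSMG, 36.2, 28.6 and 20.8 in TLSMGC, and 42.2, 18.4 and 31.5 in TLSMGCL. The lowest library with CHIR99021 was above the highest without it. The log2 difference was 1.77 ± 0.24 for TLSMGC against TLSMG (adjusted p = 5.89e-05) and 1.83 ± 0.24 for TLSMGCL against TLSMG (adjusted p = 3.67e-05), while TLSMGCL against TLSMGC gave 0.06 ± 0.24 (adjusted p = 0.944). Sema4g was also higher in TLSMGC than in TLSMG, at 6.38 to 7.82 against 4.41 to 5.80 TPM (0.43 ± 0.13, adjusted p = 0.018).

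**Figure D3:**
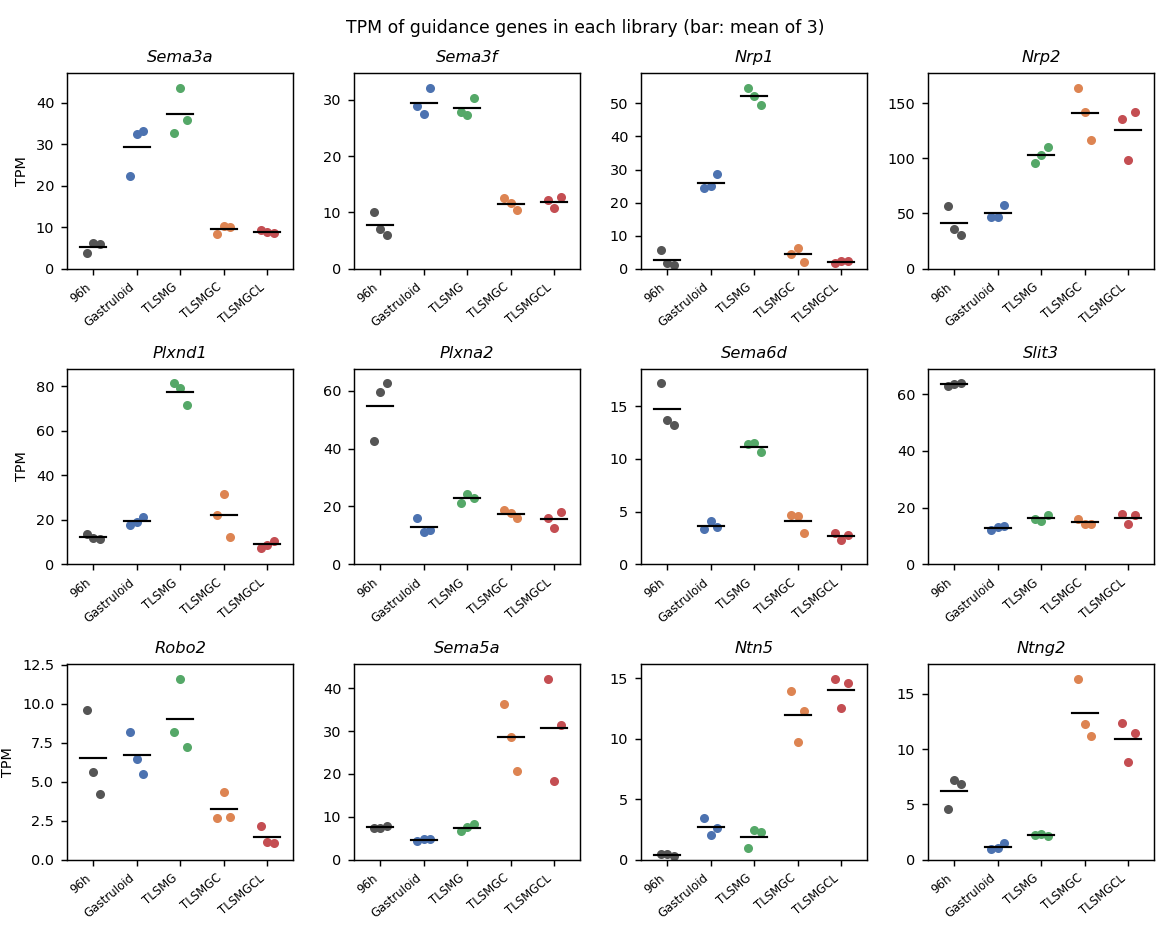
TPM of 12 guidance genes in each library, with a bar at the mean of the 3 libraries of a group; every vertical axis starts at 0. Nrp1 and Plxnd1 peak in TLSMG, Slit3 and Plxna2 at 96h, and Sema5a, Ntn5 and Ntng2 in the 2 groups with added CHIR99021.

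Among the receptors, neuropilins differed from each other. Nrp1 (chr8:128358604-128503363, plus strand), which receives Sema3a and VEGF, stood at 5.68, 1.59 and 1.04 TPM at 96h, 24.5, 24.9 and 28.8 in Gastruloid, 54.8, 52.2 and 49.5 in TLSMG, 4.43, 6.33 and 2.13 in TLSMGC, and 1.74, 2.21 and 2.43 in TLSMGCL. Every Gastruloid library was above every 96h, TLSMGC and TLSMGCL library, and every TLSMG library was above every Gastruloid library. It rose by 3.04 ± 0.36 (log2) from 96h to Gastruloid (adjusted p = 1.63e-05) and was lower by -3.41 ± 0.36 in TLSMGC (adjusted p = 7.52e-06) and by -4.09 ± 0.36 in TLSMGCL (adjusted p = 1.18e-06) than in TLSMG. Its mean TPM was 12.1-fold lower in TLSMGC and 24.5-fold lower in TLSMGCL. The difference between TLSMG and Gastruloid, 0.98 ± 0.36, was called at an adjusted p of 0.0447, and leaving out any 1 of the 6 libraries took that adjusted p to between 0.065 and 0.108.

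Nrp2 (chr1:62703285-62818695, plus strand), the partner of Sema3f and a receptor for the lymphatic growth factor VEGF-C, stood at 56.4, 36.2 and 30.3 TPM at 96h, 46.4, 46.5 and 57.7 in Gastruloid, 95.5, 103 and 111 in TLSMG, 164, 142 and 117 in TLSMGC, and 136, 98.8 and 142 in TLSMGCL. All 9 Matrigel libraries were above the 6 others, so Nrp2 did not share the low level of Nrp1 under CHIR99021. It was higher in TLSMG than in Gastruloid by 1.03 ± 0.20 (adjusted p = 0.00162), and its difference of 0.44 ± 0.20 between TLSMGC and TLSMG was not called (adjusted p = 0.0964) although the libraries did not overlap. The summed neuropilin level was 119.1 to 168.4 TPM in TLSMGC against 150.2 to 160.1 in TLSMG.

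Of the 7 tested plexins, Plxnd1 and Plxna2 carried the largest differences. Plxnd1 (chr6:115954811-115995005, minus strand), the receptor by which Sema3e steers vessels, stood at 13.5, 11.8 and 11.3 TPM at 96h, 17.7, 18.9 and 21.2 in Gastruloid, 81.4, 79.3 and 71.5 in TLSMG, 22.1, 31.6 and 12.3 in TLSMGC, and 7.51, 8.72 and 10.4 in TLSMGCL. The 3 TLSMG libraries stood far above all others, and the TLSMGC libraries were spread more widely than those of any other group. The log2 difference was 1.95 ± 0.23 for TLSMG against Gastruloid (adjusted p = 0.000109) and -1.86 ± 0.23 for TLSMGC against TLSMG (adjusted p = 3.31e-05). It was lower in TLSMGCL than in TLSMGC by -1.14 ± 0.23 (adjusted p = 0.0338), with no overlap. That call was lost when any library of the 2 groups but TLSMGC replicate 3 was left out (adjusted p of 0.056 to 0.126).

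Plxna2, a receptor for class 3 and class 6 semaphorins, stood at 42.5, 59.7 and 62.6 TPM at 96h, 16.0, 11.0 and 11.9 in Gastruloid, 21.1, 24.4 and 22.8 in TLSMG, 18.7, 17.9 and 16.0 in TLSMGC, and 15.9, 12.5 and 18.2 in TLSMGCL. The 96h libraries were highest and the TLSMG libraries next. It fell by 2.00 ± 0.17 from 96h to Gastruloid (adjusted p = 5.38e-07) and was higher in TLSMG than in Gastruloid by 0.78 ± 0.17 (adjusted p = 0.0026; adjusted p = 0.0681 with a replicate block and the GC and length correction together). Plxnb2, the most abundant plexin, stood at 71.4, 62.0 and 72.5 TPM at 96h, 78.0, 72.1 and 78.2 in Gastruloid, 79.9, 85.4 and 98.0 in TLSMG, 80.7, 76.8 and 74.3 in TLSMGC, and 82.2, 60.8 and 72.4 in TLSMGCL. It was called in TLSMG against 96h (0.35 ± 0.10, adjusted p = 0.014) and in TLSMGCL against TLSMG (-0.29 ± 0.10, adjusted p = 0.0346), both lost with median-of-ratios scaling. Plxnb1 was lower in TLSMGC than in TLSMG by -0.52 ± 0.09 (adjusted p = 0.000609) and Plxnc1, the receptor of Sema7a, by -0.92 ± 0.19 (adjusted p = 0.00196). Plxna1 was higher in TLSMG than in Gastruloid by 0.42 ± 0.09 (adjusted p = 0.00251). Plxna3 was called in no comparison, and Plxnb3 was listed at 0 in every library.

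**Figure D4:**
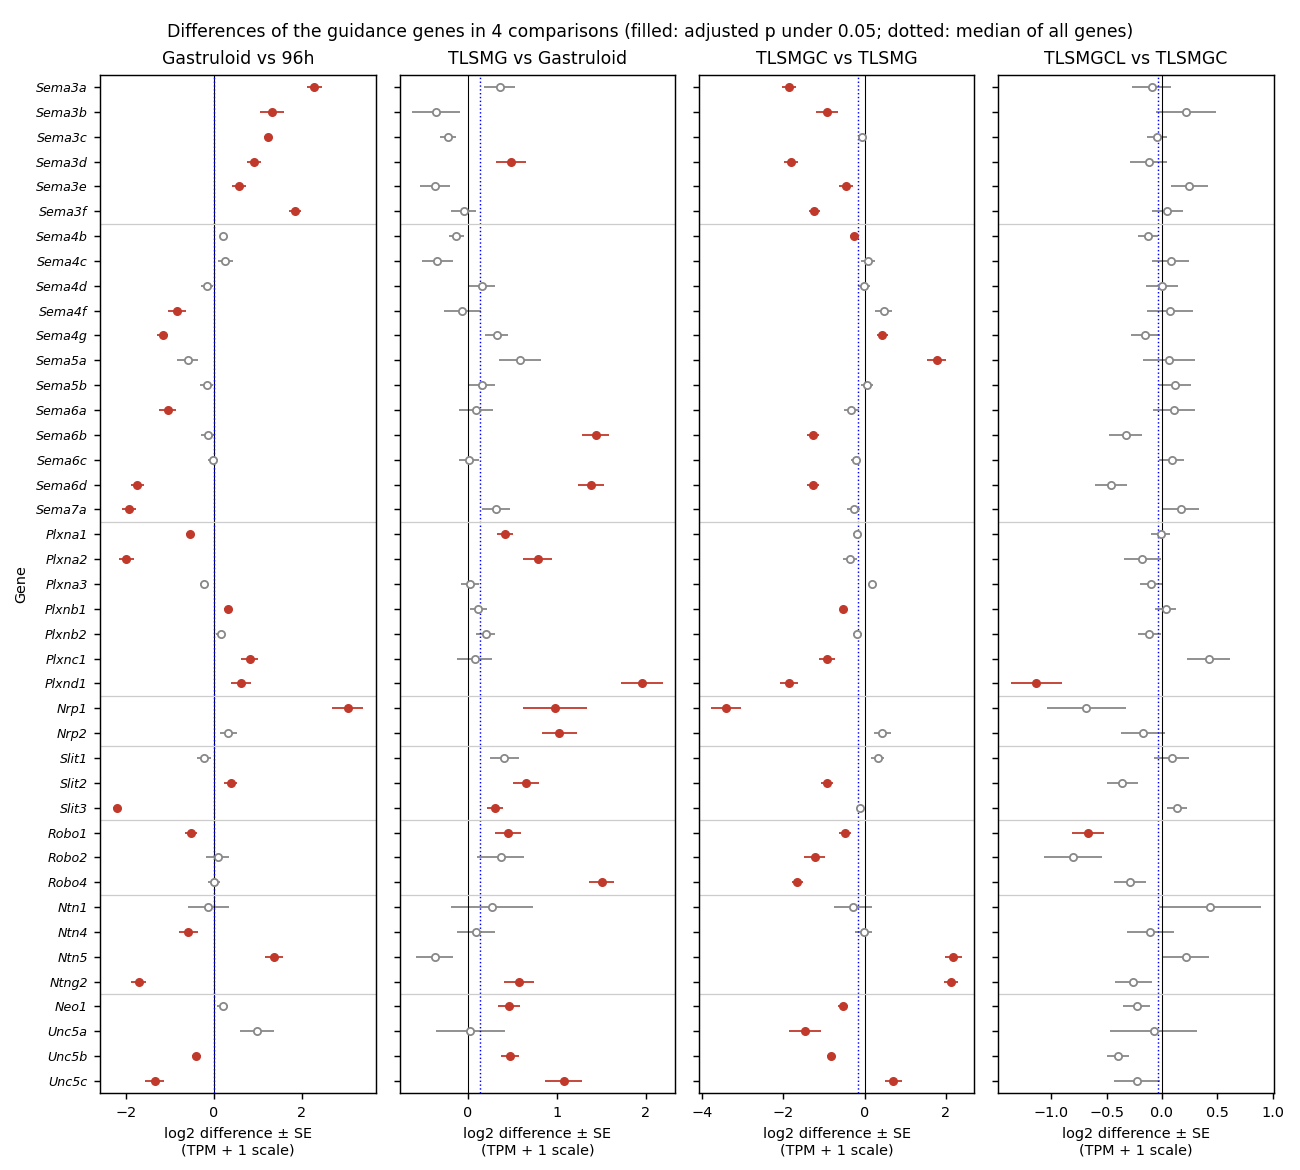
Log2 difference ± SE of each tested gene in 4 comparisons on the log2(TPM + 1) scale, with horizontal scales that differ between panels. Filled points passed an adjusted p of 0.05, the dotted line is the median of all genes, and in the panel of TLSMG against Gastruloid all 16 filled points lie to the right of 0.

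Of the Slits, Slit3 (chr11:35121224-35708507, plus strand) was the most abundant Slit at 96h, at 63.0, 63.7 and 63.9 TPM, and stood at 12.0, 13.2 and 13.5 in Gastruloid, 15.9, 15.2 and 17.4 in TLSMG, 16.1, 14.3 and 14.3 in TLSMGC, and 17.6, 14.3 and 17.5 in TLSMGCL. The groups at 120 h were close to each other and far below 96h. It fell by 2.22 ± 0.09 (log2) to Gastruloid (adjusted p = 4.64e-10) and by 1.91 ± 0.09 to TLSMG (adjusted p = 1.84e-09). Slit2, the repellent of the ventral midline, stood at 5.62, 4.89 and 4.15 TPM at 96h, 6.62, 6.53 and 6.68 in Gastruloid, 12.0, 12.8 and 8.44 in TLSMG, 5.40, 6.05 and 4.56 in TLSMGC, and 4.18, 3.65 and 3.94 in TLSMGCL. It was highest in all TLSMG libraries, with a difference of 0.65 ± 0.14 from Gastruloid (adjusted p = 0.00316; adjusted p = 0.142 with the GC and length correction) and of -0.92 ± 0.14 for TLSMGC against TLSMG (adjusted p = 0.000205). Slit1 was called in none of the 6 comparisons, but it differed by the moderated F test among the 5 groups (adjusted p = 0.00234) and among the 4 at 120 h (adjusted p = 0.00259). It was at 3.18 to 4.35 TPM in Gastruloid, 5.62 to 7.86 in TLSMGC and 6.55 to 8.15 in TLSMGCL, and Gastruloid was not compared with those 2 groups.

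All 3 tested Robos were lower in TLSMGC and in TLSMGCL than in TLSMG, where 30.5% and 35.6% of all genes were lower. Of these, Robo4 passed the filter for testing only through its level in TLSMG. Robo1 (chr16:72308306-73046095, plus strand), the most abundant, stood at 34.5, 28.7 and 28.2 TPM at 96h, 20.9, 19.5 and 21.9 in Gastruloid, 27.0, 29.5 and 29.7 in TLSMG, 21.7, 23.6 and 16.0 in TLSMGC, and 13.8, 9.86 and 13.8 in TLSMGCL. The TLSMGCL libraries were below all others. The log2 difference was -0.49 ± 0.14 for TLSMGC against TLSMG (adjusted p = 0.0151; adjusted p = 0.196 with the GC and length correction), -1.16 ± 0.14 for TLSMGCL against TLSMG (adjusted p = 2.68e-05) and -0.67 ± 0.14 for TLSMGCL against TLSMGC (adjusted p = 0.0419). The last call was also lost without any library of its 2 groups but TLSMGC replicate 3 (adjusted p of 0.0665 to 0.166).

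Robo2, which lies 845.7 kb from Robo1, stood at 9.63, 5.64 and 4.25 TPM at 96h, 8.22, 6.44 and 5.47 in Gastruloid, 8.17, 11.6 and 7.26 in TLSMG, 2.68, 4.33 and 2.76 in TLSMGC, and 2.17, 1.15 and 1.04 in TLSMGCL. All 6 libraries with added CHIR99021 were below the TLSMG libraries, and those with LDN were lowest. It was lower than in TLSMG by -1.23 ± 0.26 in TLSMGC (adjusted p = 0.00223) and by -2.03 ± 0.26 in TLSMGCL (adjusted p = 3.89e-05), and the difference of -0.80 ± 0.26 between TLSMGCL and TLSMGC was not called (adjusted p = 0.189). Robo4 (chr9:37401897-37415115, plus strand), whose promoter is shown above, stood at 0.682, 0.668 and 0.368 TPM at 96h, 0.427, 0.564 and 0.719 in Gastruloid, 4.06, 3.40 and 2.89 in TLSMG, 0.262, 0.338 and 0.654 in TLSMGC, and 0.145, 0.210 and 0.0968 in TLSMGCL. Only the TLSMG libraries exceeded 1 TPM, with a log2 difference of 1.50 ± 0.14 from Gastruloid (adjusted p = 3.06e-05). Robo4 passed the filter for testing only through these libraries, as its mean was 0.573 TPM or lower in every other group. Its calls against TLSMG, here and in the counts above, are therefore not independent of that filter. Robo3 lies 0.6 kb from Robo4 with no gene between them and did not share the high level in TLSMG. It was at 0.347 to 2.85 TPM at 96h and at or below 0.0805 TPM in all libraries at 120 h.

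Netrin 1, the classic attractant of commissural axons and the most abundant netrin here, was called in no comparison (SE 0.46 in each). Ntn1 (chr11:68209364-68400823, minus strand) stood at 75.9, 21.1 and 58.6 TPM at 96h, 37.0, 39.6 and 49.4 in Gastruloid, 29.5, 36.7 and 117 in TLSMG, 43.5, 37.7 and 42.1 in TLSMGC, and 66.5, 47.4 and 55.3 in TLSMGCL. The libraries of the 96h and TLSMG groups were spread over the range of all groups, and those of the other groups lay within it. TLSMG replicate 3, its highest library, was also the deepest, and the part of depth in this value was not tested. Ntn4 was lower in Gastruloid than at 96h by -0.59 (log2, adjusted p = 0.04) and was called in no other comparison.

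Ntn5 and Ntng2 were higher with added CHIR99021. Ntn5 (chr7:45684022-45694556, plus strand) stood at 0.475, 0.500 and 0.292 TPM at 96h, 3.48, 2.03 and 2.62 in Gastruloid, 0.963, 2.47 and 2.32 in TLSMG, 14.0, 9.71 and 12.3 in TLSMGC, and 14.9, 12.5 and 14.6 in TLSMGCL. All libraries with added CHIR99021 were above all without it. The log2 difference was 2.18 ± 0.21 for TLSMGC against TLSMG (adjusted p = 3.15e-06) and 2.41 ± 0.21 for TLSMGCL against TLSMG (adjusted p = 1.03e-06), and the mean TPM was 6.25-fold and 7.31-fold higher. Sec1 on the opposite strand overlaps 23.4% of the exon bases of Ntn5, and it went from 0.790 to 1.45 TPM in TLSMG to 2.97 to 3.56 in TLSMGC. The libraries were stranded, but whether the abundance estimates used strand is not given in the sources used here, so the value of Ntn5 is uncertain by the reads these genes may share.

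Ntng2, a netrin relative anchored to the membrane by a lipid, stood at 4.58, 7.17 and 6.88 TPM at 96h, 1.01, 1.06 and 1.47 in Gastruloid, 2.20, 2.34 and 2.17 in TLSMG, 16.4, 12.3 and 11.2 in TLSMGC, and 12.3, 8.88 and 11.5 in TLSMGCL. The 96h libraries lay between the groups with and without added CHIR99021. It fell by 1.71 ± 0.17 from 96h to Gastruloid (adjusted p = 3.37e-06) and was higher in TLSMGC than in TLSMG by 2.12 ± 0.17 (adjusted p = 6.79e-07). 6530402F18Rik on the same strand overlaps 14.0% of its exon bases and was at 0.838 to 1.00 TPM in TLSMG and at 2.95 to 4.98 in TLSMGC, so part of this value is uncertain as well.

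Of the netrin receptors, Neo1, Unc5a, Unc5b and Unc5c were tested. Unc5d and Dcc, the attractive receptor, were below that level, Unc5d at or under 0.189 TPM and Dcc with 0.957 TPM in TLSMGC replicate 1 its highest value. Neo1 (chr9:58874687-59036441, minus strand) stood at 56.8, 54.2 and 55.7 TPM at 96h, 60.6, 61.3 and 70.3 in Gastruloid, 87.8, 76.2 and 103 in TLSMG, 56.6, 68.0 and 58.0 in TLSMGC, and 54.5, 42.7 and 59.0 in TLSMGCL. The TLSMG libraries were the highest, with a log2 difference of 0.46 ± 0.12 from Gastruloid (adjusted p = 0.0105; adjusted p = 0.367 with the GC and length correction) and of -0.53 ± 0.12 for TLSMGC against TLSMG (adjusted p = 0.0039; adjusted p = 0.124 with that correction).

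Unc5b, known from endothelium among other tissues, was at 12.3 to 13.2 TPM at 96h, 7.71 to 10.3 for Gastruloid, 12.3 to 14.1 for TLSMG, 6.64 to 7.46 for TLSMGC and 4.94 to 5.19 for TLSMGCL, with differences from TLSMG of -0.83 ± 0.10 (adjusted p = 2.55e-05) and -1.23 ± 0.10 (adjusted p = 6.63e-07). Unc5a stood at 1.11, 1.41 and 0.462 TPM at 96h, 6.93, 1.65 and 1.68 in Gastruloid, 1.95, 5.36 and 2.17 in TLSMG, 0.198, 0.823 and 0.308 in TLSMGC, and 0.508, 0.257 and 0.288 in TLSMGCL. A single library stood above the others in Gastruloid (replicate 1) and in TLSMG (replicate 2), and Unc5a was lower in TLSMGC than in TLSMG by -1.46 ± 0.39 (adjusted p = 0.00896). Unc5c was at 0.0623 TPM or lower in all Gastruloid libraries and at 0.809 to 1.74 in TLSMG (1.07 ± 0.21, adjusted p = 0.00157), and it was the 1 receptor that was higher in TLSMGC than in TLSMG (0.71 ± 0.21, adjusted p = 0.0149), with overlapping libraries.

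The partners of these genes, a list of 37 co-receptors, other ligands and intracellular effectors of which 32 were tested, were counted in the same way. In Gastruloid against 96h 9 were higher and 8 lower (20.8% and 20.5% of all genes), in TLSMG against 96h 14 and 3 (33.5% and 12.5%), and in TLSMG against Gastruloid 12 and 1 (31.5% and 7.87%). In TLSMGC against TLSMG 2 were higher and 13 lower (10.4% and 30.5%), and in TLSMGCL against TLSMG 2 and 15 (9.31% and 35.6%). With median-of-ratios scaling the split in TLSMG against Gastruloid was 11 and 5, and in TLSMGCL against TLSMG 3 and 9; with the GC and length correction the split in TLSMGC against TLSMG was 4 and 7. In TLSMGCL against TLSMGC limma called 0 of 32, and 6 had an unadjusted p under 0.05. Flrt2, a ligand that repels through Unc5d and binds other Unc5 receptors, rose by 3.12 ± 0.14 (log2) from 96h to TLSMG (adjusted p = 1.24e-09), was higher in TLSMG than in Gastruloid by 1.37 ± 0.14 (adjusted p = 3.97e-05) and was lower in TLSMGC by -1.69 ± 0.14 (adjusted p = 7.82e-07). Srgap1, which acts inside the cell downstream of Robo, was higher in TLSMG than in Gastruloid (0.99 ± 0.14, adjusted p = 0.000231) and lower in TLSMGC than in TLSMG (-1.10 ± 0.14, adjusted p = 3.03e-05). Rgmb, a ligand of Neo1, rose by 1.91 ± 0.15 from 96h to Gastruloid (adjusted p = 3.16e-07), and Draxin, a netrin antagonist, was higher in TLSMG than in Gastruloid by 1.02 ± 0.16 (adjusted p = 0.000494). Crmp1 and Dpysl5, cytosolic mediators of semaphorin signals, differed: Crmp1 was lower in TLSMGC than in TLSMG (-1.06 ± 0.16, adjusted p = 0.000175), and Dpysl5 fell by 1.84 ± 0.30 from 96h to TLSMG (adjusted p = 0.000225). Flrt3, another Unc5 ligand, rose by 1.69 ± 0.12 from 96h to TLSMG (adjusted p = 9.3e-08), and Rac1, a small GTPase, was lower in TLSMGCL than in TLSMG by -1.08 ± 0.32 (adjusted p = 0.0152). That call rested on single libraries: without TLSMGCL replicate 1, at 54.5 TPM against 131 and 138 in the others, the difference was -0.65 (adjusted p = 0.0592), and without TLSMG replicate 2 it was -0.86 (adjusted p = 0.0712).

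Endothelial markers were, like Nrp1, Plxnd1 and Robo4, highest in TLSMG. All 12 markers on the list (Cdh5, Cldn5, Emcn, Esam, Etv2, Flt1, Kdr, Pecam1, Sox7, Sox18, Tek and Tie1) were higher in TLSMG than at 96h, 11 were higher than in Gastruloid, and 12 were lower in each group with added CHIR99021. Their summed level was highest for TLSMG, at 307 to 378 TPM. It was 10.5 to 15.2 TPM for 96h, 42.0 to 52.8 for Gastruloid, 29.8 to 101 for TLSMGC and 15.0 to 25.8 for TLSMGCL, and Emcn was listed at 0 in every 96h library. Within TLSMGC the sum was 58.7 TPM in replicate 1, 101 in replicate 2 and 29.8 in replicate 3, and Plxnd1 and Nrp1 were likewise highest in replicate 2 and lowest in replicate 3, while Robo4 was not. In TLSMGCL against TLSMGC, where Plxnd1 was called, 3 of the 12 markers were lower (Etv2, Tek and Cldn5), where 0.777% of all genes were. By limma 10 of the 12 had an unadjusted p under 0.05. The median log2 difference of the 12 was -0.97, against -0.04 over all genes. From 96h to Gastruloid the mean sum went from 12.4 to 46.8 TPM while Robo4 was at a mean of 0.573 and 0.570 TPM, and Unc5b was as high at 96h, where the sum was lowest, as in TLSMG. Robo4 entered the tests only through its level in TLSMG. The part of endothelial cell number in the levels of Nrp1, Plxnd1 and Robo4 was not tested.

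Of the markers of other cell types, neural progenitor markers were higher in Gastruloid than at 96h for 8 of 9 tested and lower in TLSMG than in Gastruloid for 4, so they did not share the direction of the 16 members in that comparison, and 7 of 9 were lower in TLSMGC than in TLSMG, with sums of 213 to 319 TPM in TLSMG and 63.5 to 77.4 in TLSMGC. All 12 presomitic and tailbud markers fell from 96h to Gastruloid, as Slit3, Plxna2 and Sema7a did, with sums of 1724 to 2219 TPM at 96h and 192 to 302 in Gastruloid, and with added CHIR99021 7 were higher and 1 lower. Neural crest markers other than Ets1 were below the level for testing, Sox10 among them, and of the blood and macrophage markers 7 of 8 were. Ets1 was called higher in Gastruloid than at 96h (2.18, log2) and in TLSMG than in Gastruloid (0.95). It was called lower than in TLSMG in TLSMGC (-2.30) and in TLSMGCL (-2.13). Of 5 tested sclerotome markers, 4 were higher in Gastruloid and 5 in TLSMG than at 96h. In both groups with added CHIR99021, 4 were lower and 1 higher than in TLSMG. The mean sclerotome sum was 76.1 TPM at 96h, 292 in Gastruloid, 259 in TLSMG, 210 in TLSMGC and 194 in TLSMGCL. Foxd2 alone had means of 0.667, 46.5, 49.1, 0.404 and 0.252 TPM in the same order, a larger fall than that of the sum. The neural progenitor sum had means of 82.9, 466, 271, 71.1 and 83.7 TPM in that order. Most markers of both lists thus went in the directions of Sema3a and Sema3f. Somite markers were called in both directions in each group with added CHIR99021 (5 of 9 lower and 2 higher in TLSMGC), gut endoderm markers were lower for 5 of 7 in each, and of 4 tested fibroblast markers 3 were higher in Gastruloid than at 96h. The part of these cell types in the members' levels was not tested.

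**Figure D5:**
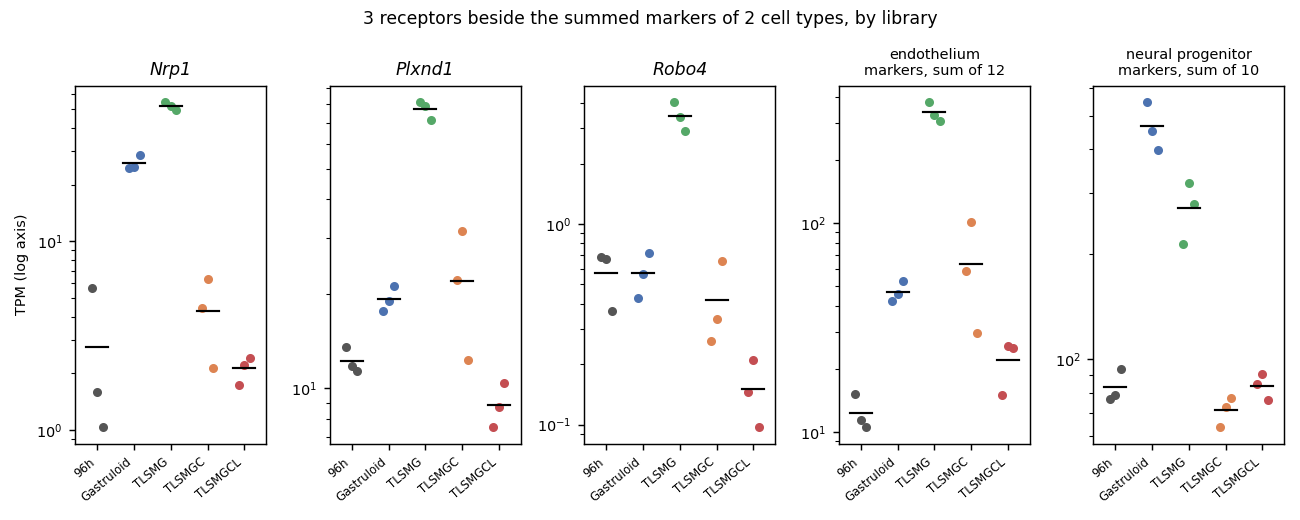
TPM of Nrp1, Plxnd1 and Robo4, and summed TPM of 12 endothelial and 10 neural progenitor markers, in each library on log axes, with a bar at the mean of 3 libraries. The 3 receptors and the endothelial sum are highest in TLSMG (307 to 378 TPM for the sum), while the neural progenitor sum is highest in Gastruloid.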

How the data were processed

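Polyadenylated RNA of 15 pools was sequenced as stranded paired-end libraries, per the labels' protocols. The submitters' processing notes name cutadapt 2.4, STAR 2.7.3a, StringTie 2.0 and the build mm10; the annotation release and the options used are not given in the sources used here. The deposited TPM values, 1 StringTie gene abundance table per library, were tested. The deposited FPKM values of the same tables served as an alternative, and the deposited coverage values only to compare depth. No counts per gene were used, so no intervals or detection limits were computed, and a listed 0 can be a failed estimate. Lines of 1 gene ID were summed. Of 54446 gene IDs, 54409 matched GENCODE M21 (GRCm38), and 48 of 49 members had the same start and end there.

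All 5 groups entered 1 limma 3.58.1 fit with trend in R 4.3.3 on log2(TPM + 1), over 14290 genes with a mean of at least 1 TPM. P-values were two-sided and adjusted within a comparison by Benjamini-Hochberg, threshold 0.05. Differences on this scale understate changes of low genes. On simulated data with 200 changed genes of 14290, for TLSMGC against TLSMG, 92% were recovered at a log2 change of 1 and 99% at 2. The changed genes were drawn from those with a mean log2(TPM + 1) above 2, with normal noise and no change in any other gene. The recovery therefore does not cover lower genes such as Robo4, or data in which as many genes change as here. Values per library are printed for members with a mean of at least 3 TPM in their highest group that passed the threshold with no overlap, up to 10 by size in a comparison, and for the most abundant member of each family; of the partners, the 3 largest called differences are named; other genes were named after their values were seen. The members and lists were chosen with earlier results of these data known. Single-cell and NanoString samples were not analysed here. Alternatives were other pseudocounts, filters, scalings, a GC and length correction, a replicate block, fits of the compared groups only, and leaving out each library. Promoters came from RefSeq on GRCm38.p6, which held 40 members.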

Additional observations from a re-analysis of the deposited data

How the results depend on the processing

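The count of members called differed from the value reported by no more than 1.5 times under every alternative run in 5 of the 6 comparisons and in both F tests. The exception was TLSMGCL against TLSMGC, where 2 members were called: 1 without a filter, 0 with the replicate block, 1 with the replicate block and the GC and length correction, 0 with only the groups compared in the fit, and 0 to 3 when a library was left out. Over all genes, this comparison called 169, against 42 with only the groups compared, 275 with the GC and length correction and 56 to 198 when a library was left out. Similar counts did not always hold the same members. With the GC and length correction, 10 of the 16 calls in TLSMG against Gastruloid were kept and 3 were added. For TLSMGCL against TLSMG, 19 of 23 were kept and 8 were added. In TLSMG against Gastruloid the GC and length correction called 3073 genes (2741 with the block) in place of 5622, and the log2 differences of that comparison correlated with GC content at -0.43 over 14283 genes. Sema3d in TLSMG against Gastruloid reversed to -0.29 with the GC and length correction, with and without the replicate block. The cause was not tested. Of the calls of members named by the rule, those lost under some alternative were Nrp1, Plxna2, Slit2, Ntng2 and Sema3d in TLSMG against Gastruloid, and Plxnd1 and Robo1 in TLSMGCL against TLSMGC. Replicate numbers did not pair the libraries: deviations of same-numbered libraries correlated at -0.18 to 0.10, over 0.1 in 1 of 18 pairs, and a library correlated best with its own number in 4 of 36 cases. The replicate block gave 23, 23, 18, 24 and 22 members in the first 5 comparisons. The deposited files limit the work: without counts, the precision of low genes such as Robo4 rests on the spread between libraries, estimated over all 5 groups of 3, and not on read numbers. The values of partners without single libraries, and the splits of ligands, receptors and partners under other scalings, were chosen after seeing the data; of the partners named, only Rac1 lost its call when a library was left out.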

Other observations

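Of the 8 members below the level for testing, all but Plxnb3 had values above 0 in some libraries. Sema3g, a class 3 semaphorin known from vessels, was listed at 0.686 to 1.35 TPM at 96h, 0.0854 to 0.116 in the Gastruloid group, 0.435 to 0.572 for TLSMG, 0.689 to 1.22 for TLSMGC and 0.138 to 0.303 for TLSMGCL, so its groups did not share the order of the other class 3 members. Robo3, which modulates Slit repulsion in commissural axons, was listed at 2.85, 1.10 and 0.347 TPM at 96h. Dcc was highest in TLSMGC, at 0.957, 0.618 and 0.513 TPM. Sema4a stayed between 0.0931 and 0.487 TPM, Plxna4 between 0.0587 and 0.919, Ntng1 at or below 1.04, and Unc5d at or below 0.189. No test was made of these values.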
